A study of Mus musculus with 8 samples.

Results

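The transcripts of 8 receptors that guide T cells through tissue were followed in mouse CD8+ T cells exposed to diisopropylamine dichloroacetate (DADA), an inhibitor of pyruvate dehydrogenase kinase. They were *Ccr7*, *S1pr1*, *S1pr5*, *Cxcr3*, *Cxcr4*, *Cxcr6*, *Ccr2* and *Ccr8*, chosen by symbol among the 22520 rows of the expression table, and all 8 were present. CD8+ T cells came from spleens of wild-type male C57BL/6J mice of 6 to 8 weeks and were kept under persistent stimulation with anti-CD3, anti-CD28 and IL-2, so the control cells were also activated and expanded ex vivo. From day 3 the medium held either 40 µM DADA (group DADA, n = 4 libraries) or the same volume of its solvent DMSO (group Ctrl, n = 4), and RNA was taken on day 6. The libraries were called biological replicates without a statement that each came from its own mouse, so the p-values measure the spread between these libraries, which may be partly technical.

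Chemokine receptors are G protein-coupled receptors that turn a gradient of a chemokine into directed migration. CCR7 brings T cells into lymph nodes, whereas S1PR1 senses sphingosine-1-phosphate (S1P) in lymph and blood and lets them out again. CXCR3, CXCR6, CCR2 and CCR8 respond to chemokines of inflamed tissue, tumors or barrier surfaces, and CXCR4 responds to CXCL12 of bone marrow and stroma.

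The DADA libraries held higher levels of the receptors for lymph node entry and exit and of several receptors for tissue. *Cxcr4* rose most, with 9.78 times the mean level of Ctrl, while *Ccr7*, *S1pr1*, *Cxcr6* and *Ccr2* rose to between 1.71 and 2.05 times. *Cxcr3* did not pass the test. *Ccr8* was present at low levels and was lower in every DADA library, and *S1pr5* was close to the limit of detection in both groups.

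Levels were deposited in FPKM, which counts sequenced fragments per length of transcript and per size of the library. The FPKM of a library summed to between 450473 and 456939 in Ctrl and to between 438299 and 449480 in DADA, with an estimated depth of 13670000 to 16370000 fragments in Ctrl and 15100000 to 18510000 in DADA. Changes are given as log2 fold changes of FPKM + 1 for the 10666 genes with at least 1 FPKM in at least 4 of the 8 libraries, from limma with Benjamini-Hochberg adjustment over all of them and a call at an adjusted p-value under 0.05. Because 1 FPKM is added, these values understate the change of genes with low levels. Differences between the groups were widespread, with 7064 genes called, 66.2% of those tested (30.9% higher and 35.3% lower with DADA). Of the calls 46.7% were higher, and this balance depended on the scaling, with 51.6% after TPM rescaling and 42.2% after quantile normalization. The ranges of the groups did not overlap for 60.6% (28.4% higher and 32.2% lower). Of the 8 receptors, 6 passed the filter, and 5 of these were called, all of them higher. Their median log2 fold change was 0.75, beside -0.02 over all genes tested.

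The cells carried the transcripts of their label. *Cd8a* was at 126 ± 1.93 FPKM in Ctrl and 154 ± 5.44 in DADA (SD, n = 4 each). The 7 measured markers of CD8+ T cell identity summed to between 1026 and 1058 FPKM in Ctrl and between 1268 and 1302 in DADA. Of these, *Cd2* rose most, from a mean of 170 to 287 FPKM, while *Cd3g* went from 216 to 227 and *Lck* from 194 to 207. All 8 myeloid markers stayed below 1 FPKM in every library, with *Csf1r*, *Adgre1*, *C1qa* and *C1qb* at 0 throughout, and summed to between 0 and 0.0883 FPKM in Ctrl and between 0.0858 and 0.207 in DADA, with *Itgam* at 0 to 0.0173 and 0.0193 to 0.0407. The neutrophil and erythroid lists also stayed below 1 FPKM throughout, with sums of up to 0.313 and 0.332. The sums of the B cell (2.78 to 3.76 FPKM in Ctrl, 3.23 to 4.40 in DADA) and NK cell lists (1.89 to 2.34 and 1.91 to 2.86) overlapped between the groups, with *Pax5* at 0. Single low markers of these lists differed without overlap, *Ebf1* at 0.183 to 0.313 FPKM in Ctrl and 0.866 to 1.42 in DADA and *Klrb1c* at 0 to 0.0484 and 0.144 to 0.249. The dendritic cell list fell from between 3.75 and 4.77 to between 1.83 and 2.43 FPKM, nearly all of it *Zbtb46*, with *Clec9a* at 0. *Flt3* of the same list went the other way, from 0 in every Ctrl library to between 0.0218 and 0.0464 FPKM in DADA. The CD4 T cell list fell from between 16.3 and 17.4 to between 15.3 and 15.8, nearly all of it *Zbtb7b*. Its low marker *Foxp3* went from between 0.0426 and 0.103 to between 0.187 and 0.268. *Cd40lg* of the same list went the other way, from between 0.155 and 0.279 to between 0 and 0.155, without overlap before rounding. The stromal and endothelial list rose from between 7.15 and 8.31 to between 9.44 and 10.5, nearly all of it *Pecam1*, with *Col3a1* and *Cdh5* at 0. Its low marker *Col1a1* went from between 0.0264 and 0.0707 to between 0.0771 and 0.134 FPKM. The part of these lists in the receptor results was not tested. In bulk RNA, a change in the share of cells that carry a transcript and a change in its amount per cell cannot be told apart.

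**Figure D1:**
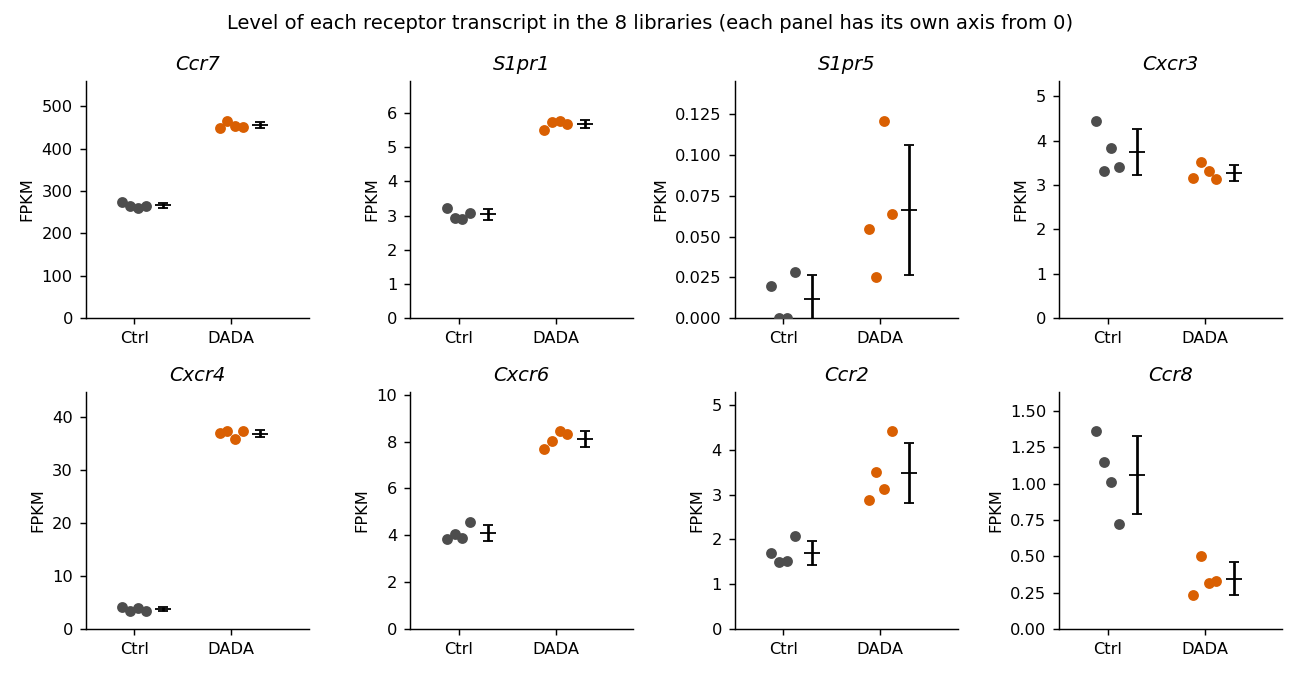
FPKM of the 8 receptor transcripts in each library, with the 4 Ctrl libraries in grey and the 4 DADA libraries in orange on a linear axis that starts at 0 and differs between panels. The black bar beside each group is the mean ± SD, cut at 0 for *S1pr5*. The groups are apart for *Ccr7*, *S1pr1*, *Cxcr4*, *Cxcr6* and *Ccr2* (higher with DADA) and for *Ccr8* (lower), and overlap for *Cxcr3* and *S1pr5*.

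*Ccr7* (ENSMUSG00000037944), the receptor for the lymph node chemokines CCL19 and CCL21, was by far the most abundant of the 8. It was at 274, 264, 261 and 265 FPKM in Ctrl and at 449, 466, 454 and 451 in DADA. Every DADA library lay far above every Ctrl library, and the spread within each group was small. The mean rose from 266 ± 5.65 to 455.0 ± 7.85 FPKM (SD, n = 4 each), a ratio of 1.71 and a log2 fold change of 0.77 (standard error 0.0225, 95% confidence interval 0.72 to 0.82, limma adjusted p = 1.28e-09). An exact two-sided permutation test on the FPKM gave p = 0.0286, which is the smallest value that 4 against 4 libraries allow and the value for every receptor whose groups were apart. By the estimated depth, *Ccr7* rested on 7068 to 8560 fragments per Ctrl library and 13566 to 16971 per DADA library.

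*S1pr1* (ENSMUSG00000045092), the receptor for exit from lymphoid tissue, had low levels of 3.23, 2.93, 2.90 and 3.08 FPKM in Ctrl. In DADA it was at 5.51, 5.73, 5.78 and 5.68 FPKM. The groups did not overlap, and the lowest DADA library was well above the highest Ctrl library. The mean rose from 3.04 ± 0.153 to 5.67 ± 0.116 FPKM, and the log2 fold change was 0.73 (interval 0.62 to 0.83, standard error 0.0452) at an adjusted p of 3.24e-07 by limma. About 121 to 146 fragments per Ctrl library and 266 to 321 per DADA library lay behind these values.

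*S1pr5* (ENSMUSG00000045087), an S1P receptor known from NK cells and terminally differentiated effector T cells, did not pass the filter. Its levels were 0.0200, 0, 0 and 0.0282 FPKM in Ctrl and 0.0547, 0.0252, 0.121 and 0.0641 in DADA. The groups overlapped, and the depth estimate put these values at 0 to 1.0 fragments per Ctrl library and 1.2 to 4.6 per DADA library, so that no fold is given. The unclassified gene *Gm48303* overlaps *S1pr5* on the opposite strand in GENCODE M21, and the strand setting of the quantification is not known here. The exact permutation test gave p = 0.0571. A fit over all 16167 genes above 0 in any library, of which 48.7% were called, gave an adjusted p of 0.0471 by limma, a call that ended when any of 7 single libraries was left out (adjusted p up to 0.11).

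The receptor with the strongest rise was *Cxcr4* (ENSMUSG00000045382). It was at 4.21, 3.42, 4.02 and 3.43 FPKM in Ctrl and at 37.0, 37.3, 35.9 and 37.3 in DADA. All 4 Ctrl libraries were low and all 4 DADA libraries high, with a gap many times the spread within either group. The mean rose from 3.77 ± 0.405 to 36.9 ± 0.663 FPKM, and the log2 fold change was 2.99 (standard error 0.0564, interval 2.87 to 3.12, limma adjusted p = 5.9e-11). A rise of at least this size was called for 24 of the 10666 genes, *Cxcr4* included, or 0.225%, and a rise of at least 1 on the log2 scale for 3.56%. In Ctrl the level of *Cxcr4* overlapped those of *Cxcr6* and *Cxcr3*, whereas in DADA it was second only to *Ccr7* among the 8 receptors and overlapped none of them.

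*Cxcr6* (ENSMUSG00000048521), the receptor for the membrane-bound chemokine CXCL16 and a marker of tissue-resident and tumor-infiltrating CD8+ T cells, was at 3.82, 4.06, 3.88 and 4.58 FPKM in Ctrl. Its DADA values were 7.69, 8.01, 8.44 and 8.31 FPKM. All DADA libraries were above all Ctrl libraries. The mean went from 4.08 ± 0.344 to 8.11 ± 0.334 FPKM, with a log2 fold change of 0.84 (standard error 0.0555, interval 0.72 to 0.97, limma adjusted p = 4.9e-07). *Fyco1* overlaps *Cxcr6* on the opposite strand in the GENCODE M21 annotation, and whether strand was used in quantification is not given in the sources used here. *Fyco1* itself was at 4.49 ± 0.215 FPKM in Ctrl and 4.86 ± 0.256 in DADA and was not called (log2 fold change 0.09, limma adjusted p = 0.128).

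*Ccr2* (ENSMUSG00000049103), the receptor for CCL2 and related chemokines that is best known for the recruitment of monocytes, was the most variable of the receptors that rose. It was at 1.70, 1.49, 1.52 and 2.08 FPKM in Ctrl and at 2.88, 3.52, 3.12 and 4.42 in DADA. In both groups replicate 4 was the highest, and the lowest DADA library still lay above the highest Ctrl library. The mean rose from 1.70 ± 0.271 to 3.49 ± 0.674 FPKM (log2 fold change 0.73, standard error 0.109, interval 0.48 to 0.97, limma adjusted p = 0.000198). *Ccr2* shares 2.92% of its 31-base words with another receptor transcript, and none of the other 7 transcripts shares any with another receptor.

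*Cxcr3* (ENSMUSG00000050232), the receptor for the interferon-induced chemokines CXCL9, CXCL10 and CXCL11, was the 1 receptor past the filter that was not called. It was at 4.45, 3.31, 3.83 and 3.40 FPKM in Ctrl and at 3.15, 3.52, 3.31 and 3.13 in DADA. The highest values were those of Ctrl 1 and Ctrl 3, and the groups overlapped. The means were 3.75 ± 0.519 and 3.28 ± 0.181 FPKM, and the log2 fold change of -0.15 (standard error 0.0767) had an interval from -0.32 to 0.03 and an adjusted p of 0.121 by limma, with p = 0.114 in the exact permutation test. Without Ctrl 1 the difference was -0.08 (interval -0.22 to 0.06). After quantile normalization it was -0.26 (interval -0.43 to -0.08) and passed the test (limma adjusted p = 0.0147).

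*Ccr8* (ENSMUSG00000042262), the receptor for CCL1 that marks regulatory T cells in tumors and some skin-homing T cells, was the only receptor of the 8 with lower values in every DADA library. It was at 1.36, 1.15, 1.01 and 0.720 FPKM in Ctrl and at 0.231, 0.505, 0.316 and 0.329 in DADA. The groups did not overlap, although *Ccr8* missed the filter because only 3 libraries reached 1 FPKM. The mean fell from 1.06 ± 0.267 to 0.345 ± 0.115 FPKM, a ratio of 0.327, on an estimated 12 to 24 fragments per Ctrl library and 4.8 to 11 per DADA library. Without the filter the log2 fold change was -0.61 (standard error 0.1, interval -0.84 to -0.38, limma adjusted p = 0.00116), where 23.9% of genes were called lower and the groups of 45.8% did not overlap, and it was -1.38 when 0.1 instead of 1 FPKM was added.

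The order of the levels changed accordingly. In Ctrl, *Ccr7* was followed by *Cxcr6*, *Cxcr4* and *Cxcr3*, whose neighbouring ranges overlapped, and then by *S1pr1*, *Ccr2*, *Ccr8* and *S1pr5*, each apart from the next. In DADA the order was *Ccr7*, *Cxcr4*, *Cxcr6*, *S1pr1*, *Ccr2*, *Cxcr3*, *Ccr8* and *S1pr5*, and only *Ccr2* and *Cxcr3* overlapped as neighbours.

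The sequences upstream of the receptors with the strongest rise and with the fall are shown here. They are the 250 bases before the transcript start in RefSeq on build GRCm38.p6, which held 6 of the 8 receptors, without *Ccr7* and *S1pr1*. They are written 5′ to 3′ on the strand of the gene, with capitals at each match to one of the letters searched.
Cxcr4, chr1:128592300-128592549, minus strand: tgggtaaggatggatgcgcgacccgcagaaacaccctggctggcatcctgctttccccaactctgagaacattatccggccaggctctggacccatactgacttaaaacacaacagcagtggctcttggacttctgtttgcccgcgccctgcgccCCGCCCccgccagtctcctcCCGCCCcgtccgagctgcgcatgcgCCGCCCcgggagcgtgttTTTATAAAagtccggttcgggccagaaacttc
Ccr8, chr9:120091883-120092132, plus strand: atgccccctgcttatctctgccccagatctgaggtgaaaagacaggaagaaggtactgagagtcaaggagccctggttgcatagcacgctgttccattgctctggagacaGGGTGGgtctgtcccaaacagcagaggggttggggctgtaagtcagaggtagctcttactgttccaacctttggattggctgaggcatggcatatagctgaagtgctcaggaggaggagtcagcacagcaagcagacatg

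Both strands were searched for 6 short motifs. The *Cxcr4* sequence held 3 GC boxes (GGGCGG, read here as CCGCCC), the letters that SP and KLF factors bind, which occur in 32.7% of the 32851 upstream sequences of the same length. It also held TATAAA, present in 12.4%, next to the transcript start, and this stretch matched on both strands because the matches overlap. The *Ccr8* sequence held a single CCACCC, read as GGGTGG, the core bound by KLF factors and found in 28.1%. *S1pr5* held 2 matches each of GGGCGG and CCACCC, and *Cxcr6*, *Ccr2* and *Cxcr3* held no match to any of the 6. None of the 6 receptors held ACGTG, the core bound by hypoxia-inducible factors (16.6% of sequences), the interferon-stimulated response element searched as GAAA, any 2 bases and GAAA (2.98%), or the kappaB site searched as GGGA, any base and TTTCC (0.356%). GC content ranged from 37.2% for *Ccr2* to 61.2% for *Cxcr4* and 69.2% for *S1pr5*.

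The relatives of these receptors were then counted in the same fit. The 2 families of chemokine and S1P receptors have 28 genes in the table, of which 20 are not among the 8, and 8 of these 20 were tested. *Ccr1* and *Ccr3* reached 1 FPKM in the DADA libraries alone, so that they entered the test through the group in which they were high, and they were left out of the counts of relatives and of CC receptors. Of the other 6, 5 were higher with DADA, none was lower, and their median log2 fold change was 0.43. This made 83.3% called, beside 66.2% of all genes tested, of which 30.9% were called higher.

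**Figure D2:**
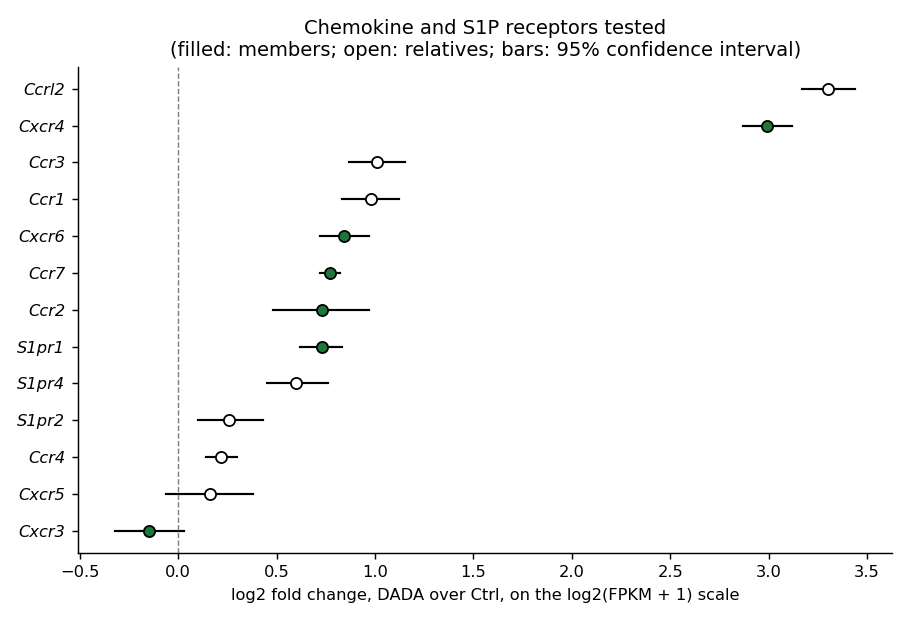
Log2 fold change of DADA over Ctrl on the log2(FPKM + 1) scale, with the 95% confidence interval from limma, for 13 of the chemokine and S1P receptors tested (n = 4 libraries each). Filled points are 6 of the 8 receptors chosen and open points their relatives. *Ccrl2* (3.30) and *Cxcr4* (2.99) stand apart at the top, the intervals of *Cxcr5* and *Cxcr3* include 0, and *Ccr1* and *Ccr3* passed the filter through DADA alone.

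Among the CC receptors, 5 of 11 were tested through both groups, *Ccr7* and *Ccr2* included, and these 5 were called higher, with a median of 0.73. Of all genes tested 66.2% were called and 30.9% were called higher. *Ccrl2*, an atypical receptor that binds chemerin, moved from 2.84, 2.44, 2.21 and 2.24 FPKM in Ctrl to 31.5, 34.7, 32.7 and 32.1 in DADA. These groups were as far apart as those of *Cxcr4*, with a log2 fold change of 3.30 ± 0.0603 (SE) and a limma adjusted p of 5.31e-11. *Ccr4*, the receptor for CCL17 and CCL22, went from 14.3 to 16.9 FPKM (0.22, limma adjusted p = 0.000485). *Ccr1* was at 0.125 to 0.184 FPKM in Ctrl and 1.13 to 1.39 in DADA (log2 fold change 0.98), and *Ccr3* at 0 to 0.0631 and 1.01 to 1.13 (1.01), and with 0.1 FPKM added in place of 1 these values were 2.42 and 3.29. *Ccr1* and *Ccr3* are best known from myeloid cells and eosinophils. The myeloid markers had the sums given above, no eosinophil marker was read, and the part of such cells in these values was not tested.

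In the CXC, CX3C and XC group, 4 of 8 receptors were tested, and *Cxcr4* and *Cxcr6* were the 2 called. *Cxcr5*, the receptor for entry into B cell follicles, was at 1.06 ± 0.109 FPKM in Ctrl and at 1.60, 1.00, 1.58 and 1.07 in DADA and was not called (0.16, interval -0.06 to 0.38, limma adjusted p = 0.185). None of the 4 atypical scavenging receptors *Ackr1* to *Ackr4* reached the filter. All 3 S1P receptors tested, of 5, were higher, with a median of 0.60, where 66.2% of all genes were called and 30.9% were higher. *S1pr4*, the most abundant S1P receptor here, was at 11.7, 10.0, 9.60 and 9.34 FPKM in Ctrl and at 16.4, 16.9, 16.0 and 14.4 in DADA, without overlap (0.60, standard error 0.0699, limma adjusted p = 3.21e-05). *S1pr2*, which couples to inhibition of migration, went from 1.60 ± 0.244 to 2.12 ± 0.0906 FPKM (0.26, limma adjusted p = 0.0105), a call that was lost after quantile normalization (0.12, adjusted p = 0.179).

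Because FPKM are scaled to length, the transcripts could be summed within a library. The 23 chemokine receptors together made up 300.0 to 315 FPKM in Ctrl and 565 to 587 in DADA. *Ccr7* held 86.9% to 87.1% of this sum in Ctrl and 79.2% to 79.5% in DADA. Without *Ccr7* the sum of the other 22 rose from between 39.0 and 40.7 to between 116 and 121 FPKM, and its make-up shifted. *Cxcr4* went from between 8.60% and 10.3% of this remainder to between 30.7% and 32.0%, and *Ccrl2* from between 5.60% and 6.97% to between 27.1% and 28.8%. *Ccr4* was the largest in Ctrl with 34.1% to 38.6% and held 14.0% to 14.9% in DADA, although its own level was higher there. Among the S1P receptors, whose sum rose from between 13.9 and 16.9 to between 22.5 and 25.1 FPKM, *S1pr1* held 19.2% to 21.6% in Ctrl and 22.7% to 25.2% in DADA.

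**Figure D3:**
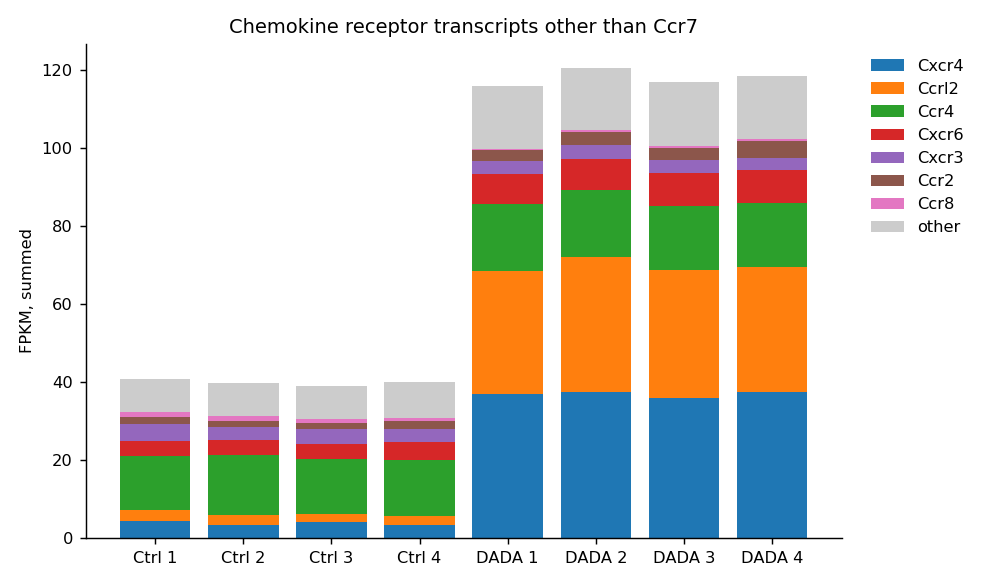
Summed FPKM of the 22 chemokine receptor transcripts other than *Ccr7* in each of the 8 libraries, stacked by gene on a linear axis from 0, with 7 genes in colour and the remaining 15 in light grey, without error bars since each bar is 1 library. The sum rises from between 39.0 and 40.7 FPKM in Ctrl to between 116 and 121 in DADA, and most of the added height is *Cxcr4* and *Ccrl2*.

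On chromosome 9, *Cxcr6* and *Ccr2* lie in a run of receptor genes. The stretch from *Ccr9* to *Ccr2* was chosen after its values were seen, and its order was read from RefSeq on GRCm38.p6. It has 8 coding genes in the table, namely *Ccr9*, *Fyco1*, *Cxcr6*, *Xcr1*, *Ccr1*, *Ccr1l1*, *Ccr3* and *Ccr2*. Of the 5 tested, the 4 receptors *Cxcr6*, *Ccr1*, *Ccr3* and *Ccr2* were higher, *Ccr1* and *Ccr3* having passed the filter through DADA alone, and *Fyco1*, which is no receptor, was not called. Over all genes tested 66.2% were called and 30.9% were called higher. Because the stretch was chosen by its values, its count is a description only.

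The genes that work with these receptors in homing were read from lists written by their textbook roles. For entry into and exit from lymph nodes, all 10 genes were tested, 7 were higher, 1 was lower, and the median was 0.53. This made 80.0% called, beside 66.2% of all genes tested, of which 30.9% were called higher. *Klf2*, a transcription factor known to drive *S1pr1*, was at 0.682, 1.03, 0.727 and 0.932 FPKM in Ctrl and at 2.51, 2.88, 3.01 and 3.72 in DADA. It was low in both groups, higher in every DADA library, and changed by 1.13 (standard error 0.0988, limma adjusted p = 4.18e-06), or by 1.74 with 0.1 FPKM added. Only 1 Ctrl library reached 1 FPKM, so *Klf2* passed the filter through the DADA libraries. The counts, the share called and the median of this list include *Klf2* and were not recomputed without it. *Foxo1*, a factor upstream of *Klf2* and *Ccr7*, went from 8.19 ± 0.168 to 13.1 FPKM (0.62, limma adjusted p = 1.3e-07).

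*Cd69*, whose protein holds S1PR1 inside the cell and so retains T cells, also rose, from 93.5 ± 2.39 to 118 FPKM (0.33, limma adjusted p = 2.16e-06). *Tbx21*, which encodes T-bet, a driver of *Cxcr3* and of effector differentiation, rose from 14.3 ± 1.15 to 22.7 FPKM (0.64, limma adjusted p = 4.94e-06), while *Cxcr3* did not pass the test. *Selplg*, the backbone of the P-selectin ligand, rose by 0.57, and *Gpr183*, an oxysterol receptor that positions lymphocytes, by 0.49. *Ptger4*, a prostaglandin E2 receptor, was the 1 gene of the list that fell, from 18.8 ± 0.778 to 15.0 FPKM (-0.31, limma adjusted p = 6.03e-05), and *Zeb2* (0.08) and *Klf3* (-0.01) did not pass the test.

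**Figure D4:**
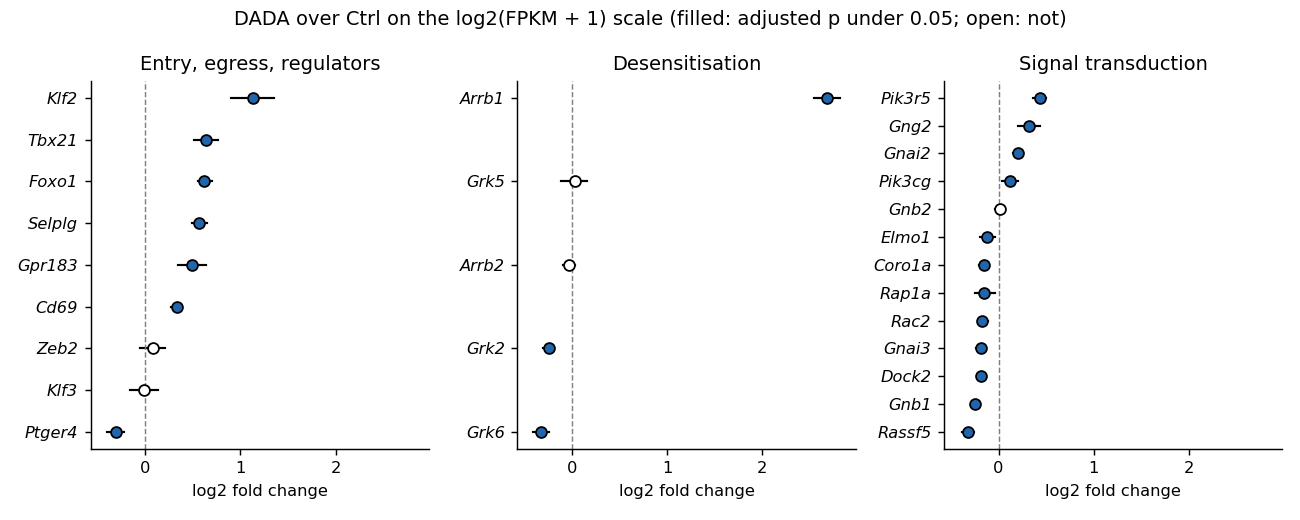
Log2 fold change of DADA over Ctrl on the log2(FPKM + 1) scale, with 95% confidence intervals from limma, for tested genes of lymph node entry and exit (9 genes), receptor desensitisation (5) and signal transduction (13). Filled points have an adjusted p under 0.05. *Arrb1* (2.68) and *Klf2* (1.13) show the largest rises among the genes drawn, and the signalling genes stay between -0.32 and 0.43.

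Downstream of the receptors, of 13 genes of signal transduction, 4 were higher and 8 lower (92.3% called, beside 66.2% of all genes), with a median of -0.15. After TPM rescaling these counts were 4 and 6, and after quantile normalization 5 and 6. *Gnai2*, the main inhibitory G protein subunit of chemokine receptors in lymphocytes, rose from 141 ± 3.39 to 162 FPKM (0.20), *Gng2* by 0.32 and *Pik3r5*, a subunit of the PI3K that these receptors switch on, by 0.43. *Rassf5*, a link from Rap1 to integrins, fell by 0.32 on the log2 scale, *Gnb1* by 0.25 and *Gnai3* by 0.18.

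Desensitisation showed a single large change. *Arrb1*, which encodes beta-arrestin 1, an adaptor that uncouples and internalises activated receptors, was at 4.96, 5.70, 4.64 and 4.35 FPKM in Ctrl and at 36.6, 37.2, 36.6 and 36.6 in DADA. All DADA libraries were high and within a narrow range (log2 fold change 2.68 ± 0.061, SE, with a limma adjusted p of 2.11e-10). Its relative *Arrb2* was at 38.9 ± 0.53 FPKM in Ctrl and 38.1 in DADA and was not called (-0.03, interval -0.09 to 0.03). *Arrb1* thus went from far below *Arrb2* to a similar level. The receptor kinases *Grk6* (-0.32) and *Grk2* (-0.24) were lower, so that 1 of 5 tested genes rose and 2 fell (60.0% called, beside 66.2% of all genes).

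For S1P metabolism, 4 of 9 genes were tested, with 2 higher and 1 lower (75.0% called, beside 66.2% of all genes). *Sgpp1*, an S1P phosphatase, fell from 22.0 ± 0.623 to 15.9 FPKM (-0.44, limma adjusted p = 1.01e-06), and *Sgpl1*, the lyase that degrades S1P, rose by 0.16. *Plpp1*, a lipid phosphatase, changed by 0.30, with overlapping groups, and its call was lost after quantile normalization (0.12, adjusted p = 0.218). Of 12 ligands of the 8 receptors, 6 were at 0 in every library and *Cxcl10* alone was tested. *Cxcl10*, a ligand of CXCR3, was at 3.24, 2.08, 2.46 and 2.67 FPKM in Ctrl and at 34.3, 34.0, 35.2 and 32.1 in DADA, without overlap (log2 fold change 3.28 ± 0.0839, SE, with a limma adjusted p of 4.86e-10).

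Of the 9 glycosyl- and sulfotransferases that build selectin ligands, 8 were tested through both groups, with 3 higher and 2 lower (62.5%, near the 66.2% of all genes) and a median of 0.15. *Gcnt1*, the branching enzyme of core 2 O-glycans, was at 0.404 to 0.785 FPKM in Ctrl and 2.26 to 2.82 in DADA (1.09, or 1.87 with 0.1 FPKM added), and it passed the filter through DADA alone. *Fut4* rose by 0.80 and *Tpst2* by 0.32, whereas the sialyltransferases *St3gal6* and *St3gal4* fell by 0.89 and 0.16 on the log2 scale.

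To describe which genes of the whole table were most like each receptor that rose, the 8 values of log2(FPKM + 1) of each gene were centred on their mean and compared by the root mean square difference. This measure follows mostly the size of the difference between the groups, and no test was made on it. *Ccr7* was closest to *Ly6c2*, which encodes the Ly6C antigen of memory-type T cells (root mean square difference 0.00953), and to *Cd2*, an adhesion receptor (0.0252). *S1pr1* was closest to *Ccr7* itself (0.0324) and to *Cd2* (0.0329). *Cxcr4* was closest to the interferon-inducible genes *Ifi214* (0.0716) and *Rtp4* (0.116), which went from 0.656 to 12.0 and from 0.337 to 9.94 FPKM. Their means reached 5 FPKM through DADA alone, and with Ctrl levels under 1 FPKM their likeness to *Cxcr4* rests on the added 1 FPKM. *Cxcr6* was closest to *Pmaip1*, which encodes the apoptosis regulator NOXA (0.0398), and *Ifi47* (0.0509), and *Ccr2* to *Nicn1* (0.107) and *Parp6* (0.115).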

How the data were processed

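The authors deposited 1 FPKM value per gene and library for 8 bulk RNA-seq libraries. The submitters' processing notes name CASAVA 1.8.2, FastQC 0.11.9, HISAT2 2.0.5, StringTie 1.3.3, Picard 1.41 and SAMtools 0.1.18, and the builds GRCm39 and GRCh38 without a role. The labels and the study's methods name different library kits, and the strand setting of quantification is not given in the sources used here. Of the 22520 rows, 22105 carried a mouse Ensembl identifier, 404 were transcripts named by an assembler and 6353 were at 0 in every library.

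FPKM hold no counts. Depth was estimated from the step between low values of 4431 genes with a single transcript in GENCODE M21. Between 45.5% and 53.8% of low values lay within 0.1 of a whole fragment, where 20% would by chance at a depth fixed in advance. Because the depth was picked for a high share, the chance level here is above 20% by an amount not computed. Depth and fragment numbers are therefore estimates, and no count test was run. On 3 simulated libraries the largest error was 2.23%. These kept the right length for most rows, an easier case than the deposited values. The error of the depths given here may therefore be larger.

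Libraries were grouped by title and treatment. Values were tested as log2(FPKM + 1) with limma 3.58.1 in R 4.3.3 (eBayes with trend, Benjamini-Hochberg), for genes with at least 1 FPKM in at least 4 libraries. In simulated data for DADA against Ctrl over 10666 genes, 178 of 200 changed genes were recovered, with 6 false among 184 calls. The simulation changed a far smaller part of the genes than the 66.2% called here, with independent noise. It therefore does not give the share of false calls in the data. Single genes were also tested by exact permutation (two-sided, 70 assignments). Tables, motifs and figures were made with Python 3.11.15, numpy 2.4.6, pandas 2.3.3 and matplotlib 3.10.9. Upstream sequences are from RefSeq (GRCm38.p6).

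The 8 receptors and all gene lists were chosen with earlier results of these data known. Named were the 8 receptors, the up to 3 largest called changes in each direction of every list, *Klf2*, *Cd69* and *S1pr4*, and for each called receptor with a change of at least 0.5 the 2 most similar genes averaging 5 FPKM or more. *Ccr4*, *Foxo1*, *Selplg*, *Gpr183*, *Fyco1*, *Cxcr5*, *Arrb2*, *Zeb2*, *Klf3*, *Xcr1*, *Ccr9* and *Ccr1l1* were named after their values were seen. A few genes taken by the rule are not reported here but stay in the list counts. Alternatives were a pseudocount of 0.1, no filter, a mean of at least 5 FPKM, quantile normalization, median-ratio scaling, rescaling to TPM, no variance trend, no assembled transcripts, a replicate block and leaving out each library.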

Additional observations from a re-analysis of the deposited data

Results flagged for a closer look

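Over 46 genes, each with a Ctrl and a DADA group of 4 libraries, 8 of the 92 groups held a library whose gap to its nearest neighbour took up more than the Dixon limit of the group's range, where chance gives about 4.6. None was a group of the 8 receptors. The gap was 0.858 of the range for *S1pr2* in Ctrl 3 (1.24 FPKM, others 1.69 to 1.77). In Ctrl 2 it was 0.942 for *Pik3r5* (16.3, others 15.7 to 15.8) and 0.882 for *Gnai2* (146, others 139 to 140). In DADA 1 it was 0.899 for *Cd69* (122, others 116 to 117). In DADA 2 it was 0.962 for *Arrb1* (37.2, others at 36.6) and 0.884 for *Fut4* (2.76, others 3.39 to 3.48). In DADA 3 it was 0.909 for *Gcnt1* (2.82, others 2.26 to 2.31) and 0.879 for *Tpst2* (21.6, others 20.8 to 20.9). Each of these 8 genes differed between the groups without overlap, as did 60.6% of all genes tested. Except for *Cd69*, they were named for being among the largest called changes of their lists, so this was likely in advance.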

How the results depend on the processing

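The calls of *Ccr7*, *S1pr1*, *Cxcr4*, *Cxcr6* and *Ccr2* held under every alternative that tested them, with log2 fold changes of 0.74 to 0.80, 0.63 to 0.88, 2.95 to 3.26, 0.76 to 0.98 and 0.60 to 0.99. Directions turned only for genes that were not called: *Fyco1* (-0.01), *Cxcr5* (-0.06) and *Arrb2* (0.0) under quantile normalization, and *Klf3* under TPM rescaling (0.01) and between -0.06 and 0.01 with each library left out. With a mean of at least 5 FPKM, 3 of the 8 receptors were called, since fewer were tested. *Cxcr3* gained a call under quantile normalization (-0.26). *S1pr5*, at the limit of detection, lost its call under quantile normalization (0.05), eBayes without trend (0.07) and the replicate block (0.07). Its fitted change was 0.05 to 0.09 with each library left out. With a pseudocount of 0.1 it was 0.55 and kept its call (limma adjusted p = 0.0291), so its size depended on the pseudocount. Same-numbered libraries did not deviate together (correlations 0.0953, -0.12, -0.0877 and 0.0751), and no Ctrl library was closest to the DADA library of its own number. The replicate block gave 6995 calls beside 7064 and changed no other of the calls recomputed for 46 genes. Over all alternatives 5741 to 7868 genes were called. Depth limits *S1pr5* and *Ccr8* most.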
